A study of Mus musculus with 6 samples.

Results

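The NRF2 antioxidant target genes are 10 genes, of 36528 gene identifiers in the data, chosen by symbol as textbook targets of the transcription factor NRF2: Slc7a11, Gclc, Gclm, Gsr, Txnrd1, Prdx1, Srxn1, Hmox1, Nqo1 and Osgin1. All 10 were found by their Entrez identifiers, and all passed the filter on low counts. They were measured by RNA-seq of polyadenylated RNA from mouse microglia, the macrophages that live in brain tissue, grown in vitro. The groups were untreated wild type (WT_untreated), untreated Cop1 KO microglia (labelled Loxp_untreated) and wild type given lipopolysaccharide (WT_LPS), a bacterial cell-wall component sensed by Toll-like receptor 4, with 2 libraries each. The labels give no strain, age, Cre driver, LPS dose or LPS duration, and name no agent or allele that all the groups share. Nothing says that the libraries of a group came from separate cultures or animals, so p-values measure the spread between these libraries, which may be technical.

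NRF2, encoded by Nfe2l2, is held in the cytoplasm by KEAP1, which brings it to the CUL3 ubiquitin ligase for destruction. Oxidants and electrophiles modify KEAP1, and NRF2 then enters the nucleus, pairs with a small MAF protein and binds antioxidant response elements, while BACH1 occupies the same elements as a repressor. The targets make and recycle glutathione (Slc7a11, Gclc, Gclm, Gsr), run the thioredoxin and peroxiredoxin cycle (Txnrd1, Prdx1, Srxn1), break down haem (Hmox1) and reduce quinones (Nqo1), and in macrophages they limit damage from the oxidants these cells make.

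Depth differed little, at 20568144 to 22553708 gene counts per library, and libraries of the same group varied beyond sampling noise (chi-square of 1.598 to 2.568 per degree of freedom). Levels are given as CPM, counts scaled to library size and TMM factors, for which the factors were 1.19 in the untreated wild type, 1.042 in Cop1 KO cells, and 0.806 with LPS. All 12 microglia markers had counts in each group, at unequal levels. Mean Csf1r was 2188 CPM in the untreated wild type, 4042 in Cop1 KO cells and 936 with LPS. In the same order Cx3cr1 was at 396, 735 and 25.3 CPM. Tmem119 (7.13, 7.85 and 1.25), P2ry12 (6.95, 7.67 and 10.6) and Sall1 (11.1, 16.6 and 14.5) were low throughout. The 12 microglia markers summed to 8303 and 8218 CPM in the untreated wild type, 12850 and 12730 in Cop1 KO cells, and 6226 and 6024 with LPS. The 12 astrocyte markers summed to 789.5 and 791.5 CPM in the untreated wild type, 55.8 and 51.2 in Cop1 KO cells, and 879.1 and 884.2 with LPS, and the 10 neuron markers to between 82.2 and 87.6 CPM in the wild-type groups and to 7.88 and 9.98 in Cop1 KO. None of the astrocyte markers was at 0 counts in any group, the neuron marker Nefl, the oligodendrocyte marker Mog and the pericyte marker Rgs5 were at 0 in both Cop1 KO libraries, and Cldn5 (endothelium) and Ly6c2 (monocytes) were at 0 in every group. Over the 6 libraries the other marker sums were 199.0 to 383.3 CPM for the oligodendrocyte lineage (lowest in Cop1 KO, highest with LPS), 165.2 to 226.7 for endothelial and mural cells, 63.2 to 119.8 for fibroblasts (highest in Cop1 KO) and 669.7 to 901.9 for monocytes and macrophages. The high oligodendrocyte sum with LPS was not shared by most of its genes. Of 8 tested, 1 rose with LPS, 4 fell and 3 missed the threshold. Mean Cnp went from 59.2 to 224.6 CPM and mean Mbp from 62.7 to 16.1. In bulk RNA, fewer cells of a type and less RNA per cell cannot be told apart. Cop1, the targeted gene, was at 12.7 and 11.5 CPM in the untreated wild type, 8.06 and 9.23 in Cop1 KO cells, and 23.4 and 27.2 with LPS. It was 1.40-fold lower in Cop1 KO (log2 fold change -0.49, SE 0.11, adjusted p = 0.00016), but missed the threshold with the deposited nRPKM values (adjusted p = 0.075, between 5.2e-07 and 0.075 over the 12 alternatives); the count covers the whole gene model, so reads outside a deleted part would be included.

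Promoters are shown first, because the members share a regulator but moved in opposite directions with LPS. RefSeq promoters of 300 bases, from 250 before to 50 after a start site (GRCm38.p6), were found for 7 members with 9 start sites. The core of the antioxidant response element, TGACNNNGC, was searched on both strands, together with the AP-1 site TGANTCA and the ATF4 composite element TGATGNAA, the last pair chosen after the data were seen. The upstream 250 bases are printed 5' to 3' on the gene's strand, with matches to these motifs in capitals. Genes that rose with LPS come first (Slc7a11, Prdx1, Txnrd1), followed by genes that fell (Gclm, Srxn1, Osgin1).
Slc7a11, chr3:50443614-50443863, minus strand: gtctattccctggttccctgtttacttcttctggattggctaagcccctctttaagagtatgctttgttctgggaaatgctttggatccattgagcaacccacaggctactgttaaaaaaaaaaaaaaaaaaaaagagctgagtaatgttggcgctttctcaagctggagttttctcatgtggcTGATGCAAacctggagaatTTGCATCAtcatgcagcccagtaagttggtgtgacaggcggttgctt
Prdx1, chr4:116685349-116685598, plus strand: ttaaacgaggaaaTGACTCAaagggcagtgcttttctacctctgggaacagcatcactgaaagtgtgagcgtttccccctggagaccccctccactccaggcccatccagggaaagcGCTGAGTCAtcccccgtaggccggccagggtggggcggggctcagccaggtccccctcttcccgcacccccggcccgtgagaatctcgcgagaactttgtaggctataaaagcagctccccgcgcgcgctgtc
Txnrd1, chr10:82858956-82859205, plus strand: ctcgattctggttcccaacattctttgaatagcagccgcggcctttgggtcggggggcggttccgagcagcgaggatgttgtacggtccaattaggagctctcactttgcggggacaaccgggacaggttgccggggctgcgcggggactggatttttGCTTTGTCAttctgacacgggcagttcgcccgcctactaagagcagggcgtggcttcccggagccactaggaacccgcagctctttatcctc
Gclm, chr3:122245307-122245556, plus strand: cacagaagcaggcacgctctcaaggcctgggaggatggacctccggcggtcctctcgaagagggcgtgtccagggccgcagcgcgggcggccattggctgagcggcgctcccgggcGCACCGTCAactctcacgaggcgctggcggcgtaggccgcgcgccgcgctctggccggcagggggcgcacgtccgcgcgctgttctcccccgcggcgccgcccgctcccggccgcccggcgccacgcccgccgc
Srxn1, chr2:152105274-152105523, plus strand: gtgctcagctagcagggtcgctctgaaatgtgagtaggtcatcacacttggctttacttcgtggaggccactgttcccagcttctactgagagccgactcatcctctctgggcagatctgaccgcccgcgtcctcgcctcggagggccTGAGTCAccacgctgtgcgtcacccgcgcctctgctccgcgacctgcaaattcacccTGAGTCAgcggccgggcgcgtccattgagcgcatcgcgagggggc
Srxn1 site after the start, chr2:152105542-152105571, plus strand: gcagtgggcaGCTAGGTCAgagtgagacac
Osgin1, chr8:119436897-119437146, plus strand: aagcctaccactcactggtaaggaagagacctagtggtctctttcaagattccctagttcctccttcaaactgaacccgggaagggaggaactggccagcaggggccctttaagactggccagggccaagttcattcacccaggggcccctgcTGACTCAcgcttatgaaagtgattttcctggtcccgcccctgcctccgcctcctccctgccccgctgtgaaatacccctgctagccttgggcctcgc

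The antioxidant response element core was found in 4 of the 7 members with a promoter, Prdx1, Txnrd1, Gclm and Srxn1, or 44.4% of their 9 promoters, against 12.4% of all 32851 promoters. Of these 4, Prdx1 and Txnrd1 rose and Gclm and Srxn1 fell with LPS, so a match to the core did not go with 1 direction. The match lay on the antisense strand from -133 to -125 in Prdx1, from -92 to -84 in Txnrd1, from -134 to -126 in Gclm and from 29 to 37 in Srxn1, counted from the start site. In Prdx1 the core overlaps an AP-1 site from -131 to -125. When the core had to be followed by A, a match remained in 1 member, Txnrd1, and in 3.04% of all promoters. AP-1 sites were found in Prdx1, Srxn1 and Osgin1, 33.3% of the members' promoters, against 7.81% of all promoters. Slc7a11 held no antioxidant response element core but 2 ATF4 composite elements, from -66 to -59 and, on the other strand, from -47 to -40; 11.1% of the members' promoters and 3.97% of all promoters held this element. No motif was matched in the Nqo1 window, or at the start sites of Txnrd1 other than the one printed. A match describes the letters in the window and not binding, and elements farther upstream lie outside it. Forms of the core with another base in place of the C at position 4 were not searched. By the printed letters, TGAGTCAGC, a form with G there, runs through the AP-1 site of Srxn1 from -45 to -39. On the antisense strand it also runs through the AP-1 site of Osgin1 from -97 to -91. These stretches are not in the counts of the core.

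With LPS the targets split. Slc7a11, the cystine importer gene, rose 12.3-fold, and Prdx1, Gsr and Txnrd1 rose 2.30-fold, 2.17-fold and 1.31-fold, whereas Osgin1, Gclc, Hmox1, Srxn1, Gclm and Nqo1 fell 1.59-fold to 3.66-fold. All 10 passed, 4 higher and 6 lower, in a comparison where 73.7% of 15585 genes passed, 30.2% higher and 43.4% lower, so most genes in these libraries were called as well. The median log2 fold change of the members was -0.95, against -0.18 for all genes tested. This comparison asks what LPS changes in wild-type cells. Tests are edgeR's quasi-likelihood test with Benjamini-Hochberg adjustment over all genes and a call below 0.05. Scaling matters for a change of this breadth: with library size only, the median of all genes went from -0.18 to -0.74 and the share of calls that were higher from 41.1% to 19.9%. Of the members, Txnrd1 changed direction with that scaling (log2 fold change -0.17) and the other 9 kept theirs.

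**Figure D1:**
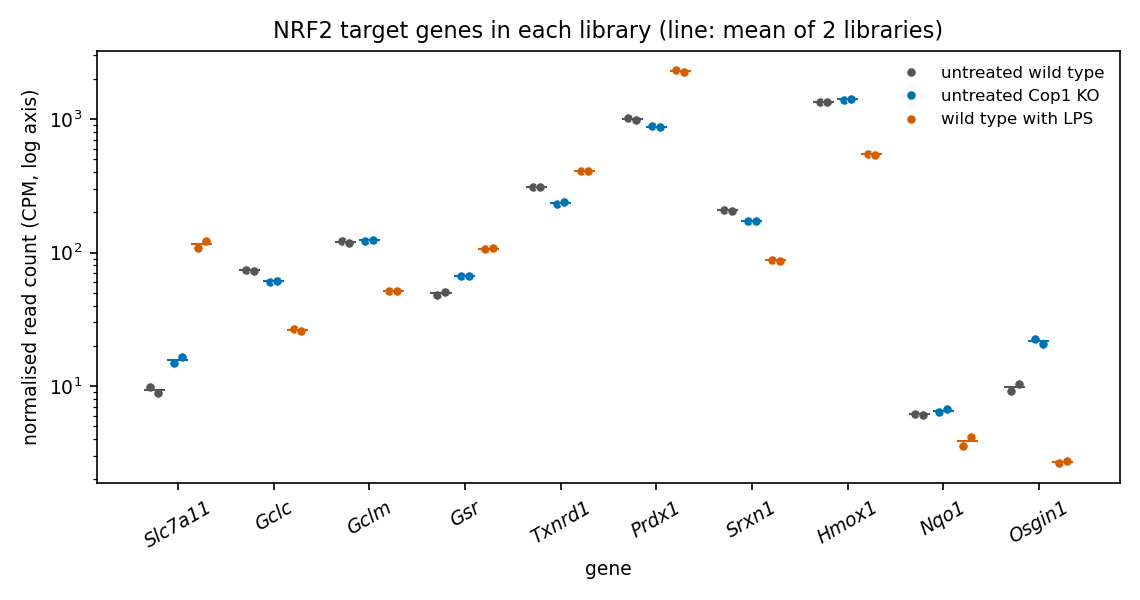
Normalised read counts (CPM, log axis) of the 10 NRF2 target genes in each of the 6 libraries, with points for libraries and lines for the mean of 2 libraries. With LPS, Slc7a11 stands at 108 and 122 CPM against 9.88 and 8.84 in untreated wild type, and Hmox1 at 552 and 542 against 1337 and 1332.

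The 4 genes of glutathione supply moved in opposite directions with LPS. Slc7a11 (chromosome 3, 50364936 to 50499087 on GRCm38), whose product brings in the cystine from which glutathione's cysteine comes, was at 9.88 and 8.84 CPM in the untreated wild type, 14.9 and 16.4 in Cop1 KO cells, and 108 and 122 with LPS. The LPS libraries were far above all others, and the groups did not overlap (log2 fold change 3.62, SE 0.08, adjusted p = 2.9e-42). On the log2(nRPKM + 1) scale, which understates changes of low genes, the difference was 2.61, and with library size only 3.06. Gsr (chromosome 8, 33653238 to 33698162), which encodes the reductase that returns oxidised glutathione to its reduced form, was at 48.2 and 50.7 CPM in the untreated wild type, 66.9 and 66.9 in Cop1 KO cells, and 106 and 109 with LPS. Its LPS libraries were again the highest (1.11, SE 0.05, adjusted p = 1.2e-26). The synthesis enzyme itself went the other way. Gclc (chromosome 9, 77754535 to 77794489), the catalytic subunit of glutamate-cysteine ligase, was at 74.2 and 72.7 CPM in the untreated wild type, 60.0 and 61.7 in Cop1 KO cells, and 26.7 and 25.6 with LPS. It fell 2.81-fold (-1.49, SE 0.06, adjusted p = 3.2e-28). Gclm (chromosome 3, 122245487 to 122267215), its modifier subunit, was at 121 and 119 CPM in the untreated wild type, 123 and 125 in Cop1 KO cells, and 51.3 and 51.1 with LPS. It fell 2.34-fold (-1.23, SE 0.05, adjusted p = 1.1e-29), and 4.7% of its exonic bases are shared with other annotated genes, which an unstranded library does not separate.

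Ratios of length-scaled values inside a library do not depend on scaling between libraries, and those given here were chosen after the data were seen. The level of Slc7a11 relative to Gclc was 0.0536 and 0.0489 in the untreated wild type, 0.0997 and 0.107 in Cop1 KO cells, and 1.63 and 1.92 with LPS, so the importer transcript was above the ligase transcript in the LPS libraries alone. Gsr relative to Gclm was 0.309 and 0.331 in the untreated wild type, 0.423 and 0.415 in Cop1 KO cells, and 1.60 and 1.65 with LPS. The subunit ratio of Gclc to Gclm stayed in a narrower range, at 0.330 and 0.330, 0.263 and 0.265, and 0.280 and 0.270 in the same order.

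The thioredoxin and peroxiredoxin genes were divided as well. Prdx1 (chromosome 4, 116685599 to 116700000), a peroxidase that removes hydrogen peroxide, was at 1019 and 977 CPM in the untreated wild type, 886 and 871 in Cop1 KO cells, and 2318 and 2272 with LPS. Its LPS libraries were above all others (1.20, SE 0.03, adjusted p = 4.4e-40). Srxn1 (chromosome 2, 152105524 to 152111376), which encodes the sulfiredoxin that repairs overoxidised peroxiredoxins, was at 210 and 205 CPM in the untreated wild type, 174 and 172 in Cop1 KO cells, and 88.3 and 86.4 with LPS. It fell 2.37-fold (-1.25, SE 0.04, adjusted p = 3.1e-33). Txnrd1 (chromosome 10, 82833951 to 82897724), the cytosolic thioredoxin reductase, was at 309.6 and 309.6 CPM in the untreated wild type, 231 and 238 in Cop1 KO cells, and 405 and 408 with LPS. Its rise was the smallest of the 4 (0.39, SE 0.03, adjusted p = 6.1e-16), and with library size only it became a fall (-0.17, adjusted p = 4.6e-06, with 1.2e-36 to 4.6e-06 over all alternatives). Inside each library, the level of Prdx1 relative to Srxn1 was 9.65 and 9.47 in the untreated wild type, 10.1 and 10.1 in Cop1 KO cells, and 52.1 and 52.2 with LPS. Txnrd1 relative to Srxn1 went from 1.03 and 1.06 in untreated wild type to 3.21 and 3.31 with LPS.

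Hmox1, Nqo1 and Osgin1 fell with LPS. Hmox1 (chromosome 8, 75093618 to 75100593), haem oxygenase 1, which breaks haem into iron, carbon monoxide and biliverdin, was at 1337 and 1332 CPM in the untreated wild type, 1402 and 1413 in Cop1 KO cells, and 552 and 542 with LPS. It fell 2.44-fold (-1.29, SE 0.03, adjusted p = 4.1e-41). Nqo1 (chromosome 8, 107388225 to 107403205), a quinone reductase, was low throughout, at 6.19 and 6.04 CPM in the untreated wild type, 6.35 and 6.67 in Cop1 KO cells, and 3.52 and 4.17 with LPS. Its LPS libraries held 63 and 69 counts, and its fall (-0.67, SE 0.17, adjusted p = 0.0003) did not pass with DESeq2 (adjusted p = 0.067, with 1.6e-09 to 0.067 over all alternatives). Osgin1 (chromosome 8, 119425882 to 119446257), an oxidative stress-induced growth inhibitor, was at 9.17 and 10.4 CPM in the untreated wild type, 22.5 and 20.6 in Cop1 KO cells, and 2.63 and 2.72 with LPS. The groups did not overlap, and it fell 3.66-fold with LPS (-1.87, SE 0.17, adjusted p = 1.2e-15), or -1.001 on the log2(nRPKM + 1) scale. The LPS libraries held only 47 and 45 counts of Osgin1. Summed astrocyte markers were at 789.5 to 884.2 CPM over the LPS and untreated libraries, while the summed microglia markers were at 6226 and 6024 CPM with LPS against 8303 and 8218 untreated. On the nRPKM scale the same sums were 3032 and 2873 against 2959 and 2905, and 4 of the 12 microglia markers rose and 7 fell with LPS. The part of these markers in the changes of the targets was not tested.

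**Figure D2:**
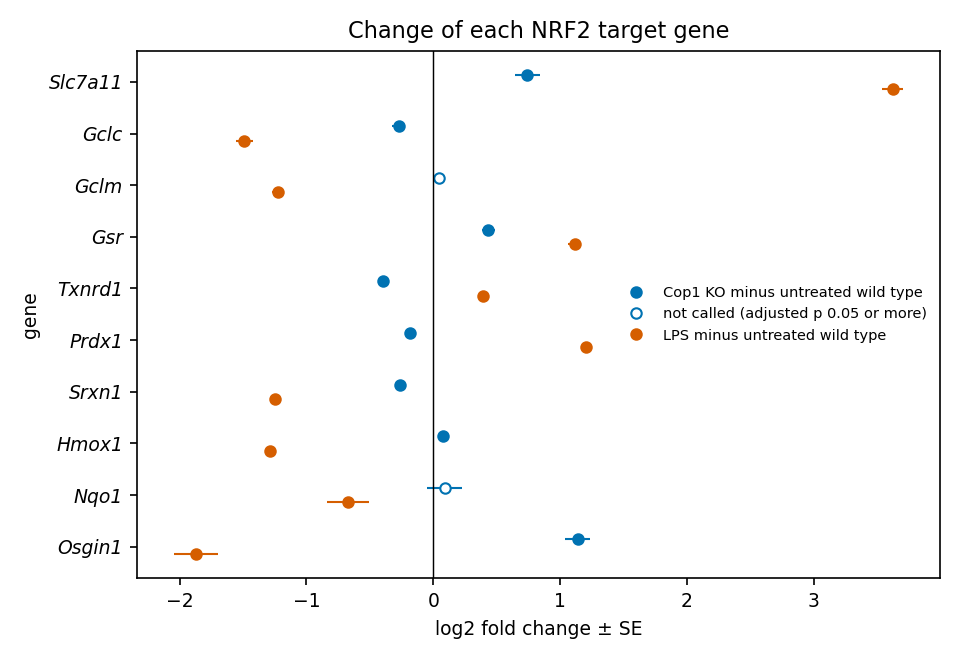
Log2 fold change with its SE of each NRF2 target gene in Cop1 KO and with LPS, both against untreated wild type, with open points for changes that were not called. The LPS changes run from -1.87 for Osgin1 to 3.62 for Slc7a11 and the Cop1 KO changes from -0.40 for Txnrd1 to 1.14 for Osgin1.

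In Cop1 KO the targets had no common direction either. Osgin1 rose 2.20-fold, Slc7a11 1.67-fold and Gsr 1.35-fold, whereas Txnrd1 fell 1.32-fold, Gclc 1.21-fold, Srxn1 1.20-fold and Prdx1 1.14-fold. With Hmox1, 4 members were higher and 4 lower, and 2 did not pass, in a comparison where 58.4% of genes passed, 28.1% higher and 30.3% lower. The median log2 fold change of the members was 0.06, which became -0.13 with library size only, and that of all genes was -0.01. The question here is what loss of the ubiquitin ligase COP1 changes in resting microglia. With library size only the share of calls that were higher was 24.4% in place of 48.1%, 58.4% with median-of-ratios factors and 63.6% with nRPKM, so the sign of small changes depends on the scaling. In the same libraries the summed astrocyte markers were 55.8 and 51.2 CPM against 789.5 and 791.5, 11 of the 12 were lower and 1 higher, and the microglia markers summed to 12850 and 12730 CPM against 8303 and 8218. The part of these markers in the changes of the targets was not tested.

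Osgin1 had the largest rise of the members in Cop1 KO (1.14, SE 0.10, adjusted p = 5.3e-15), with both knockout libraries above 20 CPM and both untreated libraries near 10. Slc7a11 (0.74, SE 0.10, adjusted p = 4e-09) and Gsr (0.44, SE 0.05, adjusted p = 2e-10) rose in every setting tried, with the knockout libraries between the untreated and the LPS libraries. Txnrd1 (-0.40, SE 0.03, adjusted p = 1.9e-15), Gclc (-0.27, SE 0.05, adjusted p = 1.1e-05) and Srxn1 (-0.26, SE 0.04, adjusted p = 1.4e-08) fell in every setting tried. Prdx1 fell by 0.18 (SE 0.03, adjusted p = 9.8e-08) and missed the threshold with nRPKM (-0.05, adjusted p = 0.17, with 2.6e-17 to 0.17 over all alternatives). Hmox1 was 1.05-fold higher (0.08, SE 0.03, adjusted p = 0.013). That call was lost without untreated library 1 (adjusted p = 0.082), untreated library 2 (0.095) or Cop1 KO library 2 (0.075), within 2.6e-07 to 0.095 over all alternatives, and turned to -0.12 with library size only. Gclm was at 0.05 (SE 0.04, 95% interval -0.03 to 0.13, adjusted p = 0.31) and Nqo1 at 0.09 (SE 0.14, 95% interval -0.19 to 0.37, adjusted p = 0.61). Gclm was called higher with median-of-ratios factors (0.14) and with nRPKM (0.17), and lower with library size only (-0.14), with adjusted p from 0.0019 to 0.61 over all alternatives.

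**Figure D3:**
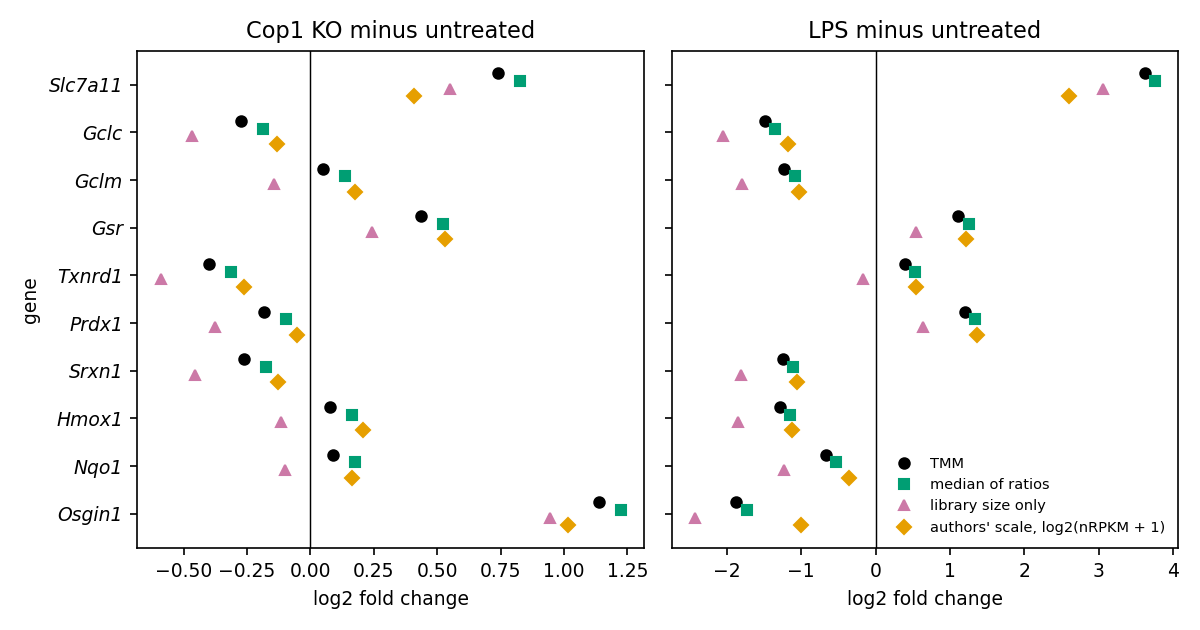
Log2 fold change of each NRF2 target gene under 4 scalings, TMM, median of ratios, library size only and the log2 of the authors' nRPKM plus 1, in Cop1 KO (left) and with LPS (right). With LPS, Txnrd1 is the member whose points lie on both sides of 0 (0.39 with TMM and -0.17 with library size only), and in Cop1 KO those of Hmox1, Gclm and Nqo1 do.

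Set directly against each other, Cop1 KO and LPS libraries differed in every member. Of the 10, 6 were higher in Cop1 KO and 4 lower, where 79.6% of all genes passed, 39.9% higher and 39.6% lower. Osgin1 was 8.05-fold higher in Cop1 KO (log2 fold change 3.01, SE 0.17, adjusted p = 2.8e-26) and Hmox1 2.57-fold higher (1.36, SE 0.03, adjusted p = 3.1e-42). Gclm, Gclc, Srxn1 and Nqo1 were higher by 1.28, 1.22, 0.98 and 0.76. Slc7a11 was 7.37-fold lower in Cop1 KO (-2.88, SE 0.08, adjusted p = 8.7e-39), and Prdx1, Txnrd1 and Gsr were lower, with log2 fold changes of -1.39, -0.79 and -0.68. On the log2(nRPKM + 1) scale the differences were 2.02 for Osgin1 and -2.195 for Slc7a11. Each of these 10 differences kept its direction and its call in all 12 alternatives. Both earlier comparisons share the untreated libraries, so their values are set side by side without a test of likeness. The order of levels from lowest to highest was untreated, Cop1 KO, LPS for Slc7a11 and Gsr; Cop1 KO, untreated, LPS for Txnrd1 and Prdx1; and LPS, Cop1 KO, untreated for Gclc and Srxn1. For Hmox1 and Osgin1 it was LPS, untreated, Cop1 KO. The step between untreated and Cop1 KO libraries was small for Hmox1 and Prdx1 and, as given above, was not called in every alternative. For Gclm and Nqo1 LPS was lowest, and Cop1 KO stood above untreated by a difference that did not pass the test and, for both, changed sign with library size only.

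On the authors' length-scaled values (nRPKM), which allow levels of different genes to be compared, Hmox1 and Prdx1 dominated the targets. In untreated wild type Hmox1 was at 573 nRPKM, rank 29 from the top of 15585 genes, and Prdx1 at 477, rank 40. Txnrd1, Srxn1 and Gclm followed at 52.1, 49.9 and 39.1 nRPKM, Gclc and Gsr were at 12.9 and 12.5, Nqo1 and Osgin1 at 2.67 and 2.60, and Slc7a11 was lowest at 0.662, rank 12013. With LPS the order changed: Prdx1 was at 1228 nRPKM, rank 33, Hmox1 at 263, rank 210, and Slc7a11 at 9.13, rank 4582, above Gclc at 5.15. In Cop1 KO Hmox1 and Prdx1 were at 661 and 459 nRPKM, and Osgin1 at 6.27 stood above Nqo1 at 3.11. The ratio of Prdx1 to Hmox1 inside a library was 0.848 and 0.816 in the untreated wild type, 0.703 and 0.686 in Cop1 KO cells, and 4.67 and 4.66 with LPS.

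Of 8 genes that control NRF2, 6 rose and 1 fell with LPS, against 73.7% of all genes called, 30.2% higher and 43.4% lower. The median log2 fold change was 0.46, or -0.10 when scaled by library size only, under which Nfe2l2 and Cul3 turned to a fall and Sqstm1 was no longer called. Keap1, which holds NRF2 back, was at 54.3 and 52.9 CPM in the untreated wild type, 71.6 and 68.2 in Cop1 KO cells, and 243 and 229 with LPS. It rose 4.41-fold with LPS (2.14, SE 0.04, adjusted p = 1.6e-42); 10.9% of its exonic bases are shared with an antisense gene, and the library does not keep the strand. The small MAF genes, whose products pair with NRF2 or BACH1, were not alike: Mafk rose 5.35-fold (2.42, SE 0.06) and Maff 3.50-fold (1.81, SE 0.12), and Mafg fell 1.51-fold (-0.59, SE 0.04). Nfe2l2 itself was at 261 and 264 CPM in the untreated wild type, 263 and 274 in Cop1 KO cells, and 305 and 326 with LPS, a rise of 0.26 (SE 0.04) that became -0.30 with library size only. Cul3, the ligase scaffold, rose by 0.33 (SE 0.05), or fell by 0.23 with library size only. Sqstm1, an autophagy receptor that sequesters KEAP1, shares 17.3% of its exonic bases with another gene and rose by 0.59 (SE 0.03), a call lost with library size only (0.03, adjusted p = 0.4, with 7.6e-98 to 0.4 over all alternatives). Bach1 was at -0.07 (SE 0.05, adjusted p = 0.17, 5.9e-17 to 0.95 over all alternatives), and its sign differed between scalings.

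In Cop1 KO 5 regulators rose and 2 fell, with a median of 0.34, against 58.4% of all genes called, 28.1% higher and 30.3% lower. Mafk rose 1.55-fold (0.64, SE 0.06), Sqstm1 by 0.58 (SE 0.03), Mafg 1.33-fold (0.41, SE 0.04), Keap1 1.30-fold (0.38, SE 0.05) and Bach1 1.24-fold (0.30, SE 0.05). Nfe2l2 was at 0.03 (SE 0.03, 95% interval -0.04 to 0.10, adjusted p = 0.48), and its sign differed between scalings, from -0.16 with library size only to 0.16 with nRPKM. Nfe2l2 was called higher in 3 of the 12 alternatives and had the opposite sign in 1. Its lowest adjusted p over all alternatives, whichever the sign, was 6.5e-05. Maff fell by 0.48 (SE 0.15), a call lost with DESeq2 (adjusted p = 0.11), with nRPKM (0.07), without untreated library 1 (0.058) and without Cop1 KO library 2 (0.063), within 8.8e-05 to 0.11 over all alternatives. Cul3 fell by 0.13 (SE 0.05, adjusted p = 0.024), a call lost in 5 of 12 alternatives, among them without untreated library 2 (0.37) and without Cop1 KO library 1 (0.23), within 2.1e-07 to 0.99 over all. These libraries held summed astrocyte markers of 55.8 and 51.2 CPM against 789.5 and 791.5, whose part was not tested. Between Cop1 KO and LPS, 2 regulators were higher in Cop1 KO and 5 lower, where 79.6% of all genes were called, and the median of -0.35 became 0.03 when scaled by library size only.

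**Figure D4:**
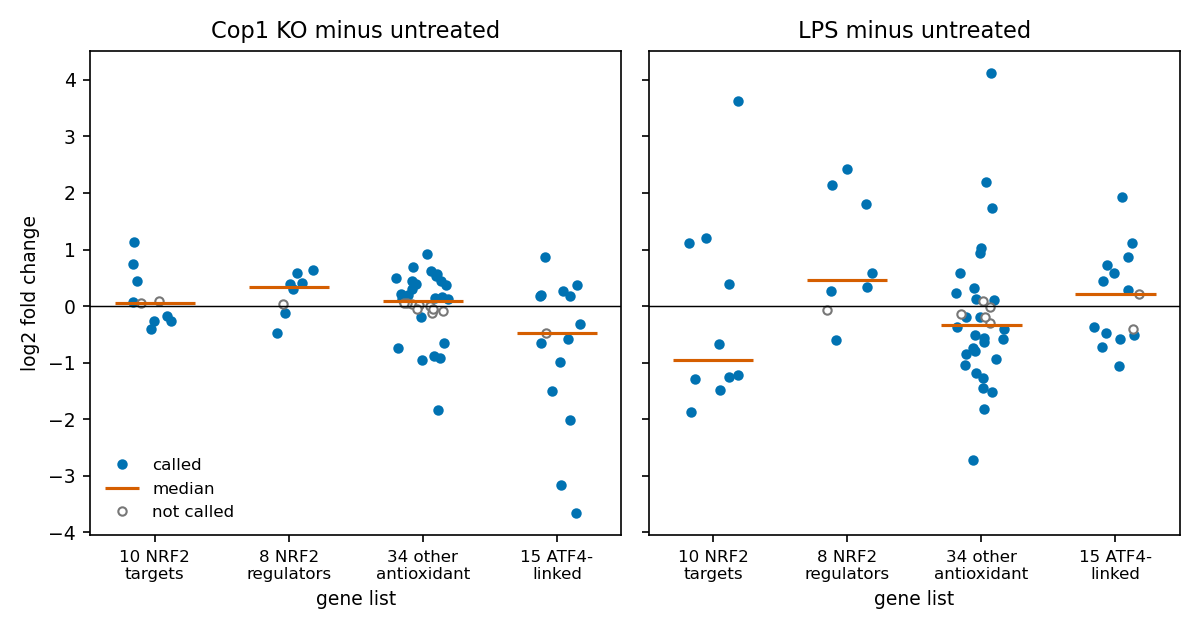
Log2 fold change of each gene of 4 lists in Cop1 KO (left) and with LPS (right), both against untreated wild type, with filled points for called genes, open points for others and a line at the list's median. The NRF2 targets have medians of 0.06 and -0.95 and the NRF2 regulators of 0.34 and 0.46.

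Beyond the 10 targets, 34 other antioxidant genes linked to NRF2 were divided with LPS. Of these 10 rose and 19 fell, while 5 missed the threshold, against 73.7% of all genes called, 30.2% higher and 43.4% lower. Their median was -0.34 against -0.18 for all genes. Whether the total of 29 called genes differs from the share over all genes was not tested. Sod2, the mitochondrial superoxide dismutase, rose 17.5-fold, from 62.9 and 65.2 to 1120 and 1118 CPM (4.13, SE 0.04, adjusted p = 9.3e-60). Glrx, a glutaredoxin, rose 4.59-fold (2.20, SE 0.04), Txn1, the thioredoxin that TXNRD1 reduces, 3.31-fold (1.73, SE 0.04) and Abcc1, an exporter of glutathione conjugates, 2.04-fold (1.03, SE 0.04). Cbr3, a carbonyl reductase, fell 6.60-fold, from 20.8 and 18.8 to 3.02 and 2.96 CPM (-2.72, SE 0.16, adjusted p = 1.5e-25), or by 2.08 on the log2(nRPKM + 1) scale. Catalase, encoded by Cat, fell 2.86-fold (-1.52, SE 0.04). Slc48a1, a haem transporter, fell 2.73-fold (-1.45, SE 0.04) and Ftl1, the ferritin light chain, 2.43-fold (-1.28, SE 0.04). Of the exonic bases of Ftl1, 34.6% are shared with other genes, so its value is uncertain. The microglia markers in the same libraries, whose sum was lower in CPM but overlapped between groups in nRPKM as given above, were not tested for a part in these changes.

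In Cop1 KO 17 of these 34 genes rose and 7 fell, while 10 missed the threshold, against 58.4% of all genes called, 28.1% higher and 30.3% lower. Their median was 0.09, or -0.11 when scaled by library size only. Glrx rose 1.90-fold (0.92, SE 0.04), Sod2 1.62-fold (0.70, SE 0.04), Taldo1, the pentose phosphate enzyme transaldolase, 1.54-fold (0.62, SE 0.03) and Cbr3 1.48-fold (0.57, SE 0.08). The scavenger receptor gene Cd36 fell 1.94-fold (-0.95, SE 0.03), Me1, the NADPH-forming malic enzyme, 1.88-fold (-0.91, SE 0.11), Gstm1, a glutathione transferase, 1.68-fold (-0.75, SE 0.05) and Prdx6, another peroxiredoxin, 1.56-fold (-0.64, SE 0.04). Gstm1 belongs to a family of similar genes. The authors counted uniquely aligned reads, which would leave out reads shared within the family, so its value is uncertain. Astrocyte markers in these libraries summed to 55.8 and 51.2 CPM against 789.5 and 791.5, and their part was not tested. Between Cop1 KO and LPS, 20 of the 34 were higher in Cop1 KO and 11 lower, where 79.6% of all genes were called; Cbr3 was 9.78-fold higher and Sod2 10.8-fold lower.

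Slc7a11 is also induced through ATF4, the transcription factor of the amino acid response, and 15 genes of that response were set beside it. With LPS 7 rose, 6 fell and 2 missed the threshold, where 73.7% of all genes were called, 30.2% higher and 43.4% lower. Their median was 0.22, or -0.34 when scaled by library size only and -0.04 without LPS library 2. Mthfd2 rose 3.81-fold (1.93, SE 0.05) and Psat1 2.17-fold (1.11, SE 0.04), both enzymes of serine and one-carbon metabolism, and Asns, asparagine synthetase, 1.82-fold (0.86, SE 0.05). Cebpg fell 2.09-fold (-1.06, SE 0.05) and Sesn2 1.66-fold (-0.73, SE 0.09). In Cop1 KO 6 rose and 8 fell, where 58.4% of all genes were called, and the median was -0.47. Vldlr, Aldh1l2 and Slc7a5 fell 12.6-fold, 8.94-fold and 4.05-fold and Psat1 1.98-fold, in libraries whose summed astrocyte markers were 55.8 and 51.2 CPM against 789.5 and 791.5, while Slc7a11 rose 1.67-fold and Ddit3 1.82-fold (0.86, SE 0.07). On the log2(nRPKM + 1) scale the falls of Vldlr, Aldh1l2 and Slc7a5 were smaller, at -0.72, -1.19 and -1.42, and Vldlr rested on 25 and 15 counts in Cop1 KO. Exons of Ddit3 overlap other annotated genes over 10.9% of their length, and those of Aldh1l2 over 14.1%. The part of the astrocyte markers in these falls was not tested.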

How the data were processed

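Polyadenylated RNA of cultured mouse microglia was sequenced in 6 libraries, 2 per group, grouped by their treatment labels. The submitters' processing notes name GSNAP and GRCm38; the aligner's version is not given in the sources used here. Per the file headers, the authors' count column holds uniquely aligned reads of a gene model. Their deposited RPKM column (nRPKM) was, per the file headers, corrected with a size factor for each sample, whose method is not stated. Of 36528 Entrez identifiers 31049 took names from RefSeq (GRCm38.p6); the others held 1.075% to 1.307% of a library's counts and stayed in the tests.

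Counts were tested with edgeR 4.0.16 in R 4.3.3 (filterByExpr by group, TMM factors, 1 quasi-likelihood fit of group means over 6 libraries, 3 residual degrees of freedom). SEs use the fitted weights and the quasi-likelihood dispersion, and intervals use the t distribution on its total degrees of freedom. P-values were adjusted over 15585 genes, and calls have no fold minimum. The script was tested on simulated counts in which few genes changed, which does not test the scaling under changes as broad as these. Alternatives were median-of-ratios factors, library size only, no low-count filter, the 2 groups compared alone, DESeq2 1.42.0, limma 3.58.1 on log2(nRPKM + 1) and leaving out each library. Counting depth limits low genes, and p-values cover the spread of these libraries. Tables were joined with Python 3.11.15. Exon overlap was taken from GENCODE on GRCm38, and promoter sequences from RefSeq.

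The members and lists were chosen with earlier results of these data known. Named genes are the members, the regulators, Cop1 and, for the other 2 lists, up to 4 called genes per direction and comparison with the largest change and a mean of at least 5 CPM; not all of them are printed. Marker lists of microglia, astrocytes, neurons, the oligodendrocyte lineage, endothelial and mural cells, fibroblasts and monocytes or macrophages were summed.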

Additional observations from a re-analysis of the deposited data

How the results depend on the processing

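No paired analysis was possible because the labels give no replicate numbers. In Cop1 KO against untreated wild type, genes called higher went from 4374 to 2319 and genes called lower from 4727 to 7200 with library size only, and genes called lower to 3037 with DESeq2. With LPS they went from 4714 to 2678 higher and from 6767 to 10770 lower with library size only. Library size only drops the TMM factors and so shifts every gene of a comparison alike. Under it the log2 fold changes in Cop1 KO turned to -0.14 for Gclm, -0.12 for Hmox1, -0.10 for Nqo1, -0.16 for Nfe2l2 and -0.004 for Atf4, and the medians to -0.13 (targets) and -0.11 (34 antioxidant genes). With LPS they turned to -0.17 for Txnrd1, -0.30 for Nfe2l2 and -0.23 for Cul3, and the medians to -0.10 (regulators) and -0.34 (ATF4 list). Between Cop1 KO and LPS they turned to 0.14 for Nfe2l2, 0.37 for Sqstm1 and 0.026 for the median of the regulators. Sqstm1 in that comparison, at -0.01, was 0.017 with no low-count filter and between -0.039 and 0.034 with 1 library left out, at or above 0 without untreated library 2, Cop1 KO library 2 or LPS library 1. Bach1 with LPS turned to 0.067 with median-of-ratios factors, 0.07 with only the groups compared, 0.059 with DESeq2 and 0.082 on the authors' scale, Cul3 in Cop1 KO turned to 0.001 on the authors' scale, and the ATF4 median with LPS ran from -0.042 (without LPS library 2) to 0.256 with 1 library left out. The counts of targets called higher and lower stayed within 1.5 times in all 3 comparisons and every alternative. That limit is wide for counts this small, and the Cop1 KO split of 4 higher and 4 lower moved inside it. With library size only, Gclm was called lower and Hmox1 turned to a fall. With nRPKM, Gclm was called higher and Prdx1 missed the threshold. With the longer form of the response element, 1 target in place of 4 held a match. The cause of the changes under other settings was not tested.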
